A study of Mus musculus with 15 samples.

Results

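The NRF2 antioxidant and glutathione genes are a list of 35 mouse genes chosen by symbol and found among 51763 Ensembl gene identifiers of one count table. All 35 passed the filter on low counts that left 16919 genes for testing. The RNA came from bone marrow-derived macrophages (BMDMs) of wild-type female C57BL/6NTac mice aged 8 to 10 weeks, grown in macrophage colony-stimulating factor in a medium that held the thiol β-mercaptoethanol, and the cells of 5 mice were pooled before they were seeded. They were stimulated for 24 h in medium with 1% serum with 1 of 5 conditions, in 3 libraries each. PBS served as the control. HMGB1 was given at 5 µg/mL either with its cysteines fully reduced (frHMGB1) or with a disulfide bond (dsHMGB1), LPS (LPS-EK) at 1 µg/mL, and the last condition joined LPS to 20 ng/mL interferon-γ (LPS/IFNγ). For LPS/IFNγ the labels give the LPS dose as 1 µg/mL in the treatment field and 100 ng/mL in the protocol text, and the study's methods give 100 ng/mL. HMGB1 is a nuclear protein that acts as an alarm signal outside the cell, and here it was a recombinant protein carrying a calmodulin-binding protein tag. The redox forms came from different sources, frHMGB1 from the study's own laboratory and dsHMGB1 as a gift. Buffers for frHMGB1 held the reducing agent DTT and those for dsHMGB1 did not, and the purified protein was stored in PBS with or without DTT. The redox state, the preparation and any DTT left in it therefore cannot be told apart. The libraries of a condition are technical replicates of 1 cell pool, and every p-value below measures only the spread between these libraries.

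NRF2, encoded by Nfe2l2, is a transcription factor that KEAP1 holds in the cytoplasm and marks for degradation. When oxidants or electrophiles modify KEAP1, NRF2 accumulates, enters the nucleus, pairs with a small MAF protein and binds antioxidant response elements near its target genes. Those targets import cystine, build and recycle glutathione, reduce thioredoxin and peroxiredoxins, supply NADPH, and break down haem and quinones, and in macrophages the pathway accompanies and limits inflammatory activation.

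The RefSeq promoter windows of the GRCm38.p6 build, which run from 250 bases before to 50 bases after an annotated start, were searched for the core of the antioxidant response element, TGACNNNGC, on both strands. Windows were found for 30 of the 35 genes, in all 40 windows, and 12 of these, 1 in each of 12 genes, held the core. That was 30% of the windows, beside 12.4% of the 32851 windows of all genes. The 12 genes were Nfe2l2, Mafg, Gclm, Txnrd1, Srxn1, Prdx1, G6pdx, Pgd, Me1, Sod1, Gsta3 and Mgst1. In 2 windows, those of Prdx1 and Me1, the match overlapped the AP-1 motif TGANTCA. The 5 windows printed here belong to the regulator itself and to 4 targets whose levels are described below, read 5′ to 3′ on the gene's strand with the core in capitals, also where the match is on the other strand. Positions are counted from the annotated start. A match describes the letters and is no evidence of binding. There was no window for Hmox1, Gclc, Gsr, Prdx6 and Abcc1.
Nfe2l2, chr2:75704614-75704913, minus strand, core from position -240: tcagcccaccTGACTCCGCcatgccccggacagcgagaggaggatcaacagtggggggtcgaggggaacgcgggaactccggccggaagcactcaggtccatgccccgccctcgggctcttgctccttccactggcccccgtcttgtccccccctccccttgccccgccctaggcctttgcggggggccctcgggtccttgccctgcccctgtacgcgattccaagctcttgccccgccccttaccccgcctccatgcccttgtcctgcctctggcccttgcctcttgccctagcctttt
Gclm, chr3:122245307-122245606, plus strand, core from position -134: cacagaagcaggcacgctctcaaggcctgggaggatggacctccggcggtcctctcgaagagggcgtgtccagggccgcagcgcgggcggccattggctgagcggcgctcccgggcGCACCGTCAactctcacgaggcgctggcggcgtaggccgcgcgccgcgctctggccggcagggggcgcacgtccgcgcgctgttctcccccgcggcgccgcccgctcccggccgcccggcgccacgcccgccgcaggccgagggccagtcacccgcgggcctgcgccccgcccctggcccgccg
Srxn1, chr2:152105274-152105573, plus strand, core from position 28: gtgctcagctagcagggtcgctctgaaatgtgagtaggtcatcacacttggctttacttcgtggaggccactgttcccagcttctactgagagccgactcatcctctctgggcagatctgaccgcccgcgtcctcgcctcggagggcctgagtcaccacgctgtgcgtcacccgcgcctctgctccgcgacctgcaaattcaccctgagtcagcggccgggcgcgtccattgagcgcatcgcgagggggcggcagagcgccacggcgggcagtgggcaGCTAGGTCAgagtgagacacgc
Txnrd1, chr10:82858956-82859255, plus strand, 1 of 3 annotated starts, core from position -92: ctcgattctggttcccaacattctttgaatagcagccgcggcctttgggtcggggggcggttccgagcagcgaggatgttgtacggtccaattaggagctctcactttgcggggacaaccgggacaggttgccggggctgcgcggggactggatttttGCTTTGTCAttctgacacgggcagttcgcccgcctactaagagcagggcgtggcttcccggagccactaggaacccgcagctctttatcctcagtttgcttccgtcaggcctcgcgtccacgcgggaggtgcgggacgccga
Prdx1, chr4:116685349-116685648, plus strand, core from position -133: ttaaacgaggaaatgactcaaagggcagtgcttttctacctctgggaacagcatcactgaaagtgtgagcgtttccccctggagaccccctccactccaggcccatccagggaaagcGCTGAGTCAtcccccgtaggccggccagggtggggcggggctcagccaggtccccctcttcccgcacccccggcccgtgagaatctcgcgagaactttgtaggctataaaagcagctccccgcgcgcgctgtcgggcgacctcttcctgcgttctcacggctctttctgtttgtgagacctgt

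The libraries held 40934540 to 80925478 counts. Macrophage markers were present, with all 8 past the filter and a summed level of 13158 to 27352 CPM (counts scaled to the library total), and that sum differed between conditions without overlap. It was 21745 to 26253 CPM in PBS, 27069 to 27352 in frHMGB1, 18419.8 to 19663 in dsHMGB1, 14907 to 15529.6 in LPS and 13158 to 13465 in LPS/IFNγ. Dendritic cell markers, of which 2 of 4 passed the filter, summed to 1.73 to 2.77 CPM in PBS, 3.09 to 4.28 in dsHMGB1, 7.77 to 8.48 in LPS and 13.1 to 14.2 in LPS/IFNγ. The part of either sum in the results below was not tested. Neutrophil markers summed to 1.97 to 5.56 CPM with S100a9, Ly6g and Mpo at 0, lymphocyte markers to at most 0.152 CPM and fibroblast markers to 118 to 282 CPM. In bulk RNA, fewer cells of a type and less RNA per cell cannot be told apart. PBS replicate 3 stood apart: its log2 CPM correlated with the other PBS libraries at 0.934 to 0.939, whereas all other pairs within a condition reached 0.987 to 0.993. Its deviation followed transcript length. Across the 35 genes the Spearman correlation of that deviation with the length of the main transcript (the best-ranked APPRIS transcript, the longest where several tie) was -0.708, and across 13025 protein-coding genes it was -0.612. Short transcripts were high, as for Sod1, which was 4.76 times the mean of PBS replicates 1 and 2, and long ones were low, as for Gclc at 0.254 times that mean. Of the 35 genes, 24 were higher and 11 lower in this library than in both other PBS libraries. The deviation of dsHMGB1 replicate 1 also followed length over the 35 genes, with a Spearman correlation of -0.609. The counts of called genes are therefore given with all 15 libraries and again without PBS replicate 3. The same is done for many single genes whose call it changed. Elsewhere a fold change over PBS comes from all 15 libraries, and its size can depend on PBS replicate 3.

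**Figure D1:**
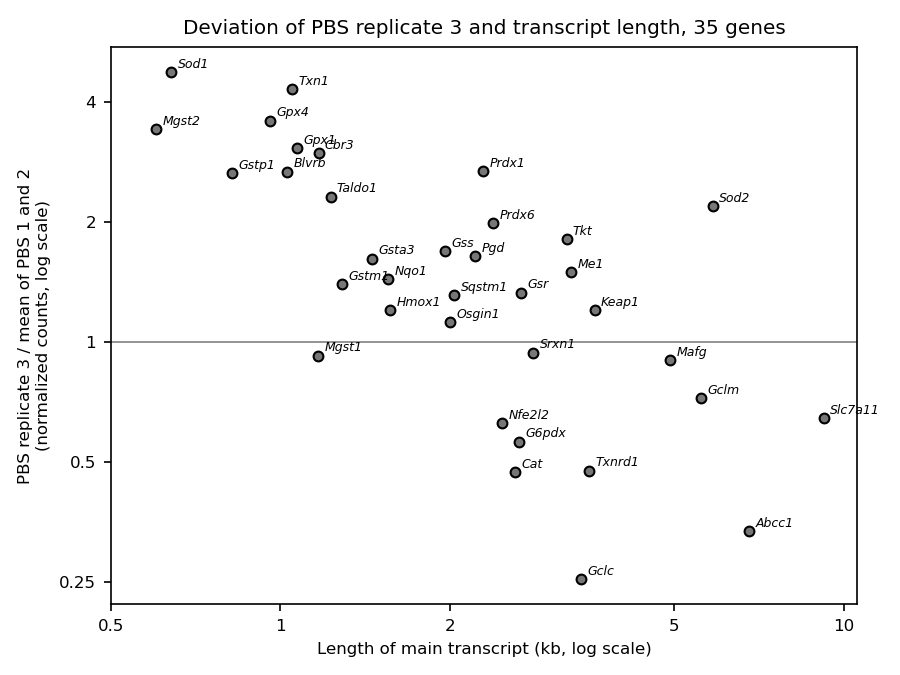
Each point is 1 of the 35 genes, with the length of its main transcript in kilobases (log scale) on the horizontal axis and the ratio of PBS replicate 3 to the mean of PBS replicates 1 and 2, in normalized counts (log scale), on the vertical axis. Sod1 and Txn1, with short transcripts, lie highest at 4.76 and 4.31, while Gclc and Abcc1 lie lowest at 0.254 and 0.334.

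Levels are normalized counts, which are counts divided by a DESeq2 size factor for each library. Fold changes and their standard errors (SE) were estimated with DESeq2. A gene was called when its Benjamini-Hochberg adjusted p over all genes tested was under 0.05 in edgeR's quasi-likelihood test. All 15 libraries entered the same fit. The SE and p of a comparison that does not involve PBS therefore also depend on PBS replicate 3. In dsHMGB1 the list spanned 46.0 normalized counts per kilobase of transcript for Gsta3 to 86135 for Sqstm1, with Prdx1 next at 54851.

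dsHMGB1 was the condition with the highest mean for 18 of the 35 genes (51.4%), beside 1529 of 16919 genes tested (9.04%). Without PBS replicate 3 it was 19 genes (54.3%) beside 10.7% of all tested. Those in both counts included Nfe2l2 and Keap1, the cystine transporter gene Slc7a11, both subunits of glutamate-cysteine ligase and Txnrd1. LPS/IFNγ had the highest mean for 2 genes, Txn1 and Sod2, in either count. In 22 of the 35 genes (62.9%) every dsHMGB1 library lay above every LPS and every LPS/IFNγ library, as did 2549 (15.1%) of the genes tested.

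**Figure D2:**
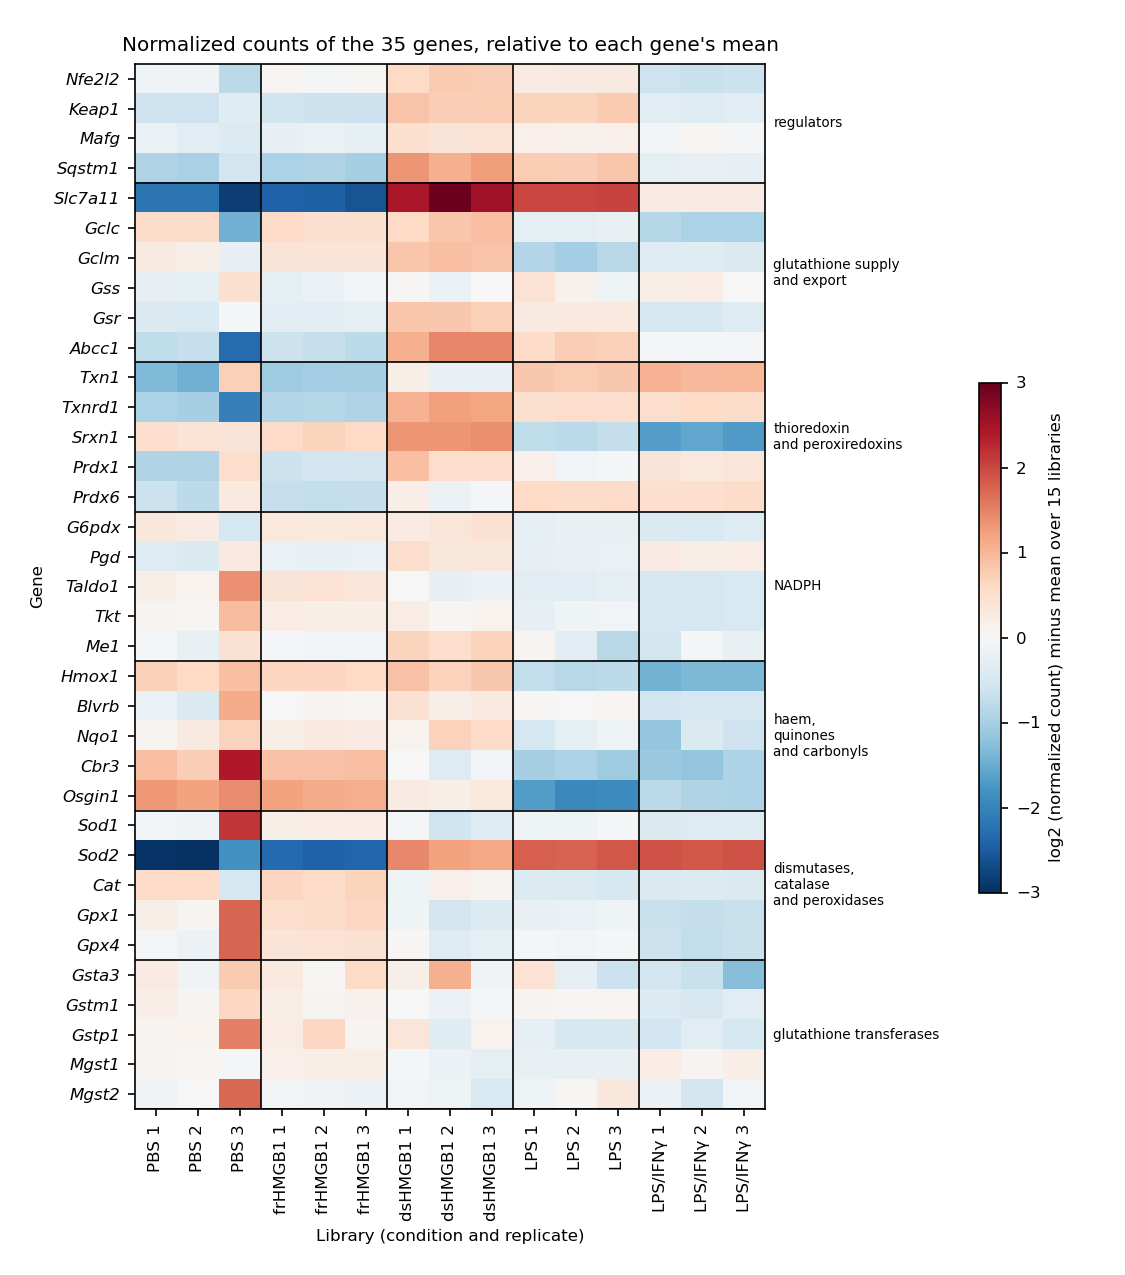
Rows are the 35 genes grouped by role and columns the 15 libraries. Colour is the log2 normalized count minus the gene's mean over all libraries, with the scale ending at -3 and 3. By the mean of normalized counts before the log, dsHMGB1 is the highest condition for 18 genes. Hmox1, Srxn1 and Osgin1 turn blue with LPS and LPS/IFNγ, and PBS replicate 3 differs from its neighbours in the rows of Sod1, Gpx1, Gpx4, Gclc and Abcc1.

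The regulators were taken first. Nfe2l2 was at 17175, 17304 and 10786 normalized counts in PBS and at 19431, 18329 and 19159 in frHMGB1. It rose to 28278, 32061 and 31531 in dsHMGB1 and to 22079, 22684 and 22666 in LPS, while the LPS/IFNγ libraries held 12264, 11859.7 and 12091. The 3 dsHMGB1 libraries were above all 12 others, LPS came next without overlap, and LPS/IFNγ lay inside the range of PBS because of PBS replicate 3. Nfe2l2 was 2.03-fold higher in dsHMGB1 than in PBS (log2 1.02 ± 0.15 SE, edgeR adjusted p = 0.000163), and 1.77-fold higher without PBS replicate 3. In dsHMGB1 it was 1.36-fold higher than in LPS (adjusted p = 0.0322) and 2.54-fold higher than in LPS/IFNγ (adjusted p = 2.01e-05). LPS/IFNγ was 1.86-fold below LPS (adjusted p = 0.00123) and was not called against PBS with all libraries (adjusted p = 0.065) but lower without PBS replicate 3 (log2 -0.52 ± 0.06).

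Keap1, the adaptor that targets NRF2 for degradation, was at 2316, 2328 and 2778 in PBS and at 6461, 5943 and 6037 in dsHMGB1. In LPS it was at 5675, 5670.1 and 6154, and in LPS/IFNγ at 2877, 2733 and 2790.3. dsHMGB1 and LPS overlapped and did not differ by the test (log2 0.08 ± 0.08, adjusted p = 0.275), and both were above every PBS and LPS/IFNγ library, with dsHMGB1 2.49-fold and LPS 2.36-fold over PBS. Sqstm1, which encodes the autophagy receptor p62 that captures KEAP1, was at 40574, 38567 and 51740.4 in PBS and at 189133, 157981 and 179259.6 in dsHMGB1. LPS gave 127669.6, 126492 and 133751, and LPS/IFNγ gave 62974, 65179 and 63702. No 2 of these 4 conditions overlapped, and dsHMGB1 was 4.02-fold over PBS, 1.36-fold over LPS and 2.74-fold over LPS/IFNγ (adjusted p = 1.56e-09, 0.00178 and 9.04e-08). Mafg, a small MAF partner of NRF2, followed the same order with smaller steps, from a mean of 3967 ± 292 (SD, n = 3) in PBS to 6645 ± 206 in dsHMGB1, 5439.9 ± 31.7 with LPS and 4826 ± 202 with LPS/IFNγ. Mafg shares 124 bases of exon with Sirt7 on the same strand, so its counts are less certain. All 4 regulators were called higher in dsHMGB1 than in PBS (beside 23.3% of all genes tested), than in frHMGB1 (beside 27.7%) and than in LPS/IFNγ (beside 16.5%), and 3 of 4 than in LPS (beside 15.8%), with the same counts without PBS replicate 3.

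Among the genes of glutathione supply, Slc7a11, the cystine importer, had the largest rise over PBS in dsHMGB1 of the 35 genes. It stood at 720.2, 716 and 462 normalized counts in PBS and at 616, 603 and 545 in frHMGB1. It reached 17875, 25168 and 18757 in dsHMGB1, 13102, 13261 and 13491 in LPS, and 3918, 3895 and 3873 in LPS/IFNγ. All dsHMGB1 libraries lay above all LPS libraries and these above all LPS/IFNγ libraries, with dsHMGB1 replicate 2 the highest. The rise over PBS was 32.4-fold in dsHMGB1 (log2 5.02 ± 0.17, adjusted p = 2.76e-10), 20.9-fold in LPS and 6.14-fold in LPS/IFNγ. dsHMGB1 exceeded LPS 1.55-fold (adjusted p = 0.00985) and LPS/IFNγ 5.29-fold (adjusted p = 3.13e-07).

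Glutamate-cysteine ligase carries out the first and rate-limiting step of glutathione synthesis, and both its subunits were higher in dsHMGB1 than in LPS. Gclm, the modifier subunit, was at 2626, 2458 and 1835 in PBS, at 3851, 4075 and 3964 in dsHMGB1, at 1192, 1072 and 1215 in LPS and at 1665, 1695 and 1613 in LPS/IFNγ. None of these groups overlapped, dsHMGB1 being the highest and LPS the lowest. Gclm rose 1.72-fold over PBS in dsHMGB1 (adjusted p = 0.000321) and was 1.99-fold lower than PBS in LPS (adjusted p = 1.18e-05), so that dsHMGB1 exceeded LPS 3.42-fold (log2 1.77 ± 0.12, adjusted p = 7.89e-07).

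Gclc, the catalytic subunit, was at 2079.9, 2077 and 527 in PBS, at 2173, 2533 and 2661 in dsHMGB1, at 1188, 1166 and 1225 in LPS and at 787, 743 and 743 in LPS/IFNγ. PBS replicate 3 alone was below all other libraries, and apart from it dsHMGB1 was the highest group and LPS/IFNγ the lowest. With all libraries Gclc was not called in dsHMGB1 or in LPS against PBS (adjusted p = 0.169 and 0.261), and without PBS replicate 3 it was called higher in dsHMGB1 (log2 0.24 ± 0.08) and lower in LPS (log2 -0.81 ± 0.09). dsHMGB1 was 2.06-fold over LPS (adjusted p = 0.0388) and 3.24-fold over LPS/IFNγ (adjusted p = 0.00255).

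Gsr, which regenerates reduced glutathione, was at 2847, 2789.9 and 3739 in PBS, at 6835, 6735 and 6324 in dsHMGB1, at 4651, 4726 and 4721 in LPS and at 2745, 2740.3 and 2919 in LPS/IFNγ. dsHMGB1 was highest without overlap, LPS was second, and LPS/IFNγ overlapped PBS. It was 2.12-fold over PBS and 1.41-fold over LPS in dsHMGB1 (adjusted p = 4.42e-07 and 0.000615). Abcc1, which exports glutathione and its conjugates, had means of 15965 ± 2419 in dsHMGB1, 10076 ± 640.1 in LPS, 6144 ± 70.3 in LPS/IFNγ and 3883 ± 181 in frHMGB1. It was called higher than PBS under each of the dsHMGB1, LPS and LPS/IFNγ conditions. Its 1.58-fold excess in dsHMGB1 over LPS missed the threshold with all libraries (adjusted p = 0.106). It passed without PBS replicate 3 (adjusted p = 2.26e-06). The difference was log2 0.66 ± 0.31 with all libraries and 0.67 ± 0.09 without that library. Its SE fell while its size hardly moved. Gss, glutathione synthetase, lay between 428 and 735 in all 15 libraries and was called in no comparison with all of them, while without PBS replicate 3 it was called higher than PBS with LPS and with LPS/IFNγ (log2 0.42 ± 0.14 and 0.39 ± 0.14, adjusted p = 0.0238 and 0.0432). Its exons overlap those of Acss2 on the opposite strand over 395 bases.

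**Figure D3:**
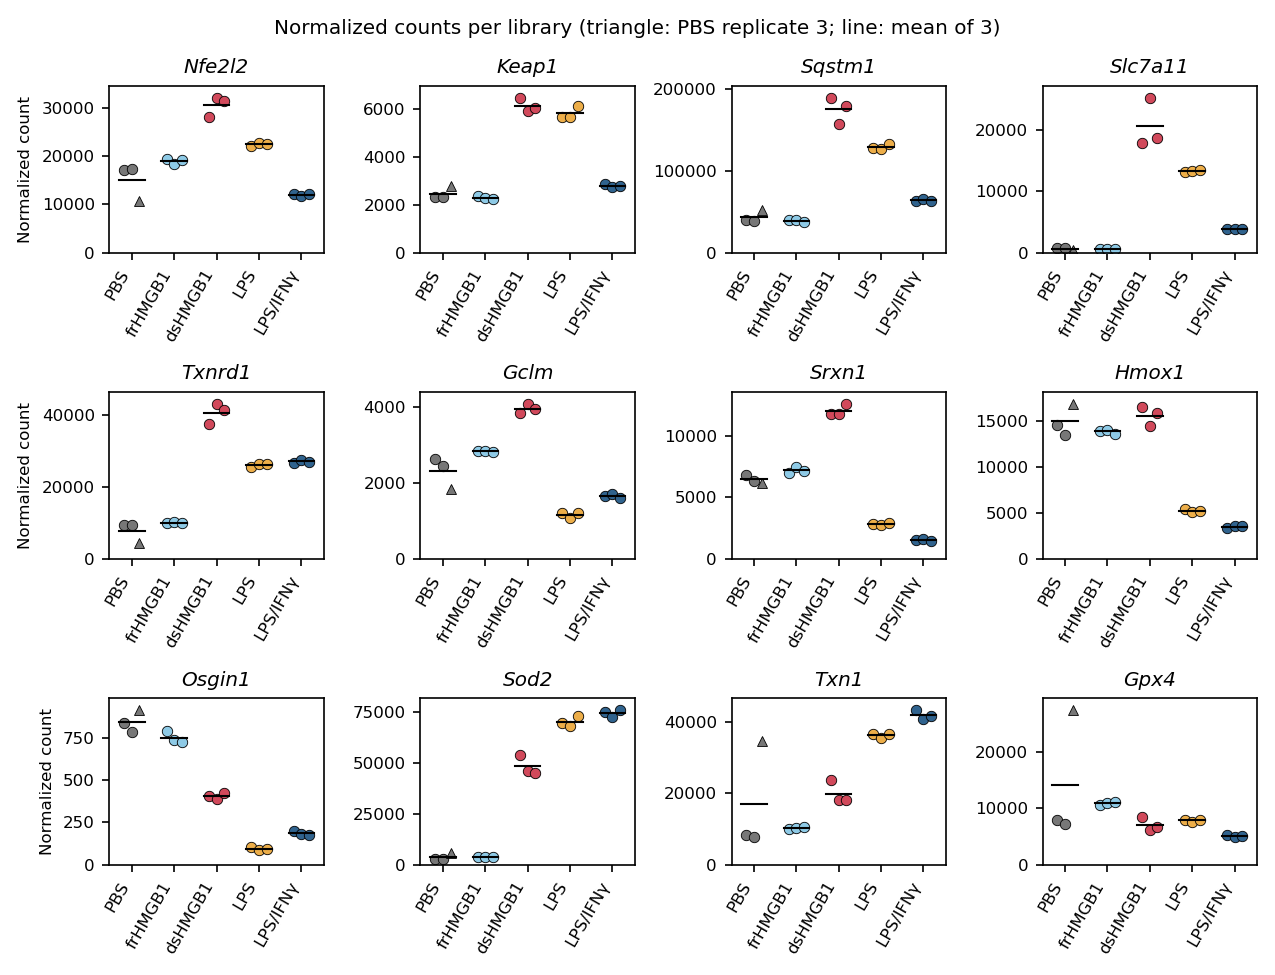
Normalized counts (linear axis from 0) of 12 genes in each of the 15 libraries, by condition, with a black line at the mean of 3 libraries and a triangle for PBS replicate 3. Slc7a11, Txnrd1, Gclm, Srxn1, Nfe2l2 and Sqstm1 are highest in the 3 dsHMGB1 libraries, Hmox1 and Osgin1 fall with LPS and LPS/IFNγ, and the triangle sits far from the other PBS points for Txn1 and Gpx4.

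The thioredoxin genes split. Txnrd1, thioredoxin reductase, was at 9497, 9281 and 4462 in PBS, at 37576, 43014 and 41407 in dsHMGB1, at 25449, 26486 and 26364 in LPS and at 26665, 27593 and 27033 in LPS/IFNγ. All stimulated groups were above PBS and dsHMGB1 was the highest, while the LPS/IFNγ libraries lay just above the LPS libraries without a call (log2 0.05 ± 0.22, adjusted p = 0.82). Txnrd1 was 5.25-fold over PBS in dsHMGB1 (adjusted p = 1.58e-06), and 4.32-fold without PBS replicate 3. For this gene dsHMGB1 was higher than LPS by 0.64 and than LPS/IFNγ by 0.59 on the log2 scale (SE 0.22 each, adjusted p = 0.0325 and 0.0497). Its substrate Txn1, thioredoxin, was instead lower in dsHMGB1 than in LPS and LPS/IFNγ. Txn1 was at 8349.8, 7704 and 34584 in PBS, at 23781, 18027 and 18037 in dsHMGB1, at 36591, 35653 and 36766 in LPS and at 43280.4, 40865 and 41741 in LPS/IFNγ. The LPS and LPS/IFNγ libraries were all above the dsHMGB1 libraries, and PBS replicate 3 reached almost the LPS level. The difference of dsHMGB1 from LPS was log2 -0.87 ± 0.43 and not called with all libraries (adjusted p = 0.164), and log2 -0.86 ± 0.09 and called without PBS replicate 3 (adjusted p = 1.26e-07).

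Srxn1, sulfiredoxin, which repairs overoxidised peroxiredoxins, set dsHMGB1 furthest apart from LPS/IFNγ on the list. It was at 6839.5, 6325 and 6190.2 in PBS, at 11801, 11799 and 12561 in dsHMGB1, at 2814, 2727 and 2898 in LPS and at 1507, 1616 and 1463 in LPS/IFNγ. The groups did not overlap, with dsHMGB1 above and both LPS groups below PBS. Srxn1 rose 1.87-fold over PBS in dsHMGB1 (adjusted p = 1.55e-06) and was 2.29-fold lower in LPS and 4.22-fold lower in LPS/IFNγ (adjusted p = 2.98e-08 and 1.89e-10). dsHMGB1 was 4.28-fold over LPS and 7.89-fold over LPS/IFNγ (log2 2.98 ± 0.07, adjusted p = 1.61e-10).

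Prdx1, a peroxiredoxin that removes hydrogen peroxide, was at 42794, 42343 and 114497 in PBS and at 147828, 114868 and 114789.7 in dsHMGB1. It was at 88799, 74964 and 76118 in LPS and at 103239.8, 99388 and 102133 in LPS/IFNγ. dsHMGB1 was the highest group in each library, although PBS replicate 3 came close to it, and the rise over PBS was 1.89-fold with all libraries and 2.95-fold without PBS replicate 3. Prdx6, a peroxiredoxin that also acts on phospholipid peroxides, was higher in LPS (5897 ± 61.8) and LPS/IFNγ (5665 ± 134) than in dsHMGB1 (3961 ± 549). The difference of dsHMGB1 from LPS was log2 -0.57 ± 0.23 and missed the threshold with all libraries (adjusted p = 0.0646). It passed without PBS replicate 3 (log2 -0.57 ± 0.08) and with an offset for transcript length (log2 -0.58, adjusted p = 0.0277).

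The NADPH-producing enzymes and the other enzymes of the pentose phosphate pathway changed by smaller amounts. Pgd, of the oxidative pentose phosphate pathway, was at 35116, 30726 and 30932 in dsHMGB1 and at 20405, 21062 and 21336 in LPS. It was 1.54-fold over LPS (adjusted p = 0.00238) and 1.46-fold over PBS in dsHMGB1, and 1.28-fold over PBS in LPS/IFNγ. For Pgd, PBS replicate 3 was 1.64 times the mean of PBS replicates 1 and 2, and the folds over PBS depend on it. G6pdx, the entry enzyme of that pathway, had means of 11014 ± 806 in dsHMGB1, 7299 ± 231 with LPS and 6455 ± 195 with LPS/IFNγ. It did not differ between dsHMGB1 and PBS by the test (log2 0.28 ± 0.18, adjusted p = 0.257) but was 1.51-fold over LPS and 1.71-fold over LPS/IFNγ (adjusted p = 0.0189 and 0.0046). G6pdx shares 418 exonic bases with Ikbkg on the opposite strand. Me1, cytosolic malic enzyme, was expressed at a low level, at 259, 235 and 261 in dsHMGB1 against 172, 129 and 91.2 in LPS, and was 1.92-fold higher (adjusted p = 0.00475). Tkt and Taldo1, of the non-oxidative branch, were both called lower than PBS in LPS and in LPS/IFNγ. Taldo1 was also lower than PBS in dsHMGB1, 1.76-fold with all libraries (adjusted p = 0.00991) and 1.23-fold without PBS replicate 3. The fall of Taldo1 in LPS/IFNγ was 2.24-fold with all libraries and 1.57-fold without PBS replicate 3. Tkt was 1.53-fold higher in dsHMGB1 than in LPS/IFNγ (adjusted p = 0.00814).

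Hmox1, Blvrb, Nqo1 and Cbr3, of haem, quinone and carbonyl breakdown, were counted together with Osgin1, which is not such an enzyme. All 5 genes were called lower than PBS in LPS/IFNγ (beside 31.2% of all genes tested) and 4 in LPS (beside 36.2%), the exception being Blvrb. Without PBS replicate 3 the counts of lower genes were again 5 and 4 (beside 34.4% and 38.3%), and Blvrb was called higher in LPS. Hmox1, haem oxygenase 1, was at 14647, 13523 and 16851 in PBS, at 13963, 14099.8 and 13599.8 in frHMGB1 and at 16544, 14470.0 and 15853 in dsHMGB1. It was at 5394, 5045 and 5209.6 in LPS and at 3379, 3517 and 3512 in LPS/IFNγ. dsHMGB1 and PBS overlapped (log2 0.06 ± 0.09, adjusted p = 0.619), and all their libraries were above those of LPS and LPS/IFNγ. Hmox1 was 2.88-fold lower in LPS and 4.32-fold lower in LPS/IFNγ than in PBS (adjusted p = 2.03e-09 and 1.1e-10), and dsHMGB1 lay 1.58 ± 0.09 log2 units above LPS and 2.17 ± 0.09 above LPS/IFNγ (adjusted p = 3.68e-08 and 9.65e-10).

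Osgin1, an oxidative-stress-induced growth inhibitor, was at 840.5, 787 and 913 in PBS, at 406, 390.3 and 425 in dsHMGB1, at 106, 88.2 and 89.7 in LPS and at 198, 181 and 178 in LPS/IFNγ. None of these groups overlapped, and here dsHMGB1 lay below PBS but above both LPS groups. frHMGB1, at 788, 737 and 728, overlapped PBS. The fall was 2.08-fold in dsHMGB1, 8.89-fold with LPS and 4.55-fold with LPS/IFNγ (adjusted p = 1.77e-06, 4.32e-11 and 8.69e-10). Nqo1, a quinone reductase often used as a readout of NRF2, was low throughout, at 126, 143 and 193 in PBS, 127, 193 and 178 in dsHMGB1, 82.7, 98.6 and 107 with LPS and 53.0, 87.3 and 77.7 with LPS/IFNγ. dsHMGB1 overlapped PBS and was above all LPS and LPS/IFNγ libraries, by 1.73-fold and 2.29-fold on the fitted means (adjusted p = 0.0131 and 0.00092).

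Cbr3, a carbonyl reductase, fell from 1174, 1052 and 3322 in PBS to 627, 483 and 598 in dsHMGB1, 318, 333 and 301 with LPS and 289.5, 279 and 334 with LPS/IFNγ. PBS replicate 3 was 2.99 times the mean of its neighbours, and the fall in dsHMGB1 was 3.25-fold with it and 1.96-fold without it. Blvrb, biliverdin reductase B, had means of 9331 ± 915 in dsHMGB1, 7740.5 ± 109 with LPS and 5226 ± 129 with LPS/IFNγ. Its change from PBS in dsHMGB1 was log2 -0.02 ± 0.30 with all libraries and 0.61 ± 0.08, called higher, without PBS replicate 3. In LPS it likewise turned from -0.29 ± 0.30, not called, to 0.34 ± 0.08, called higher.

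**Figure D4:**
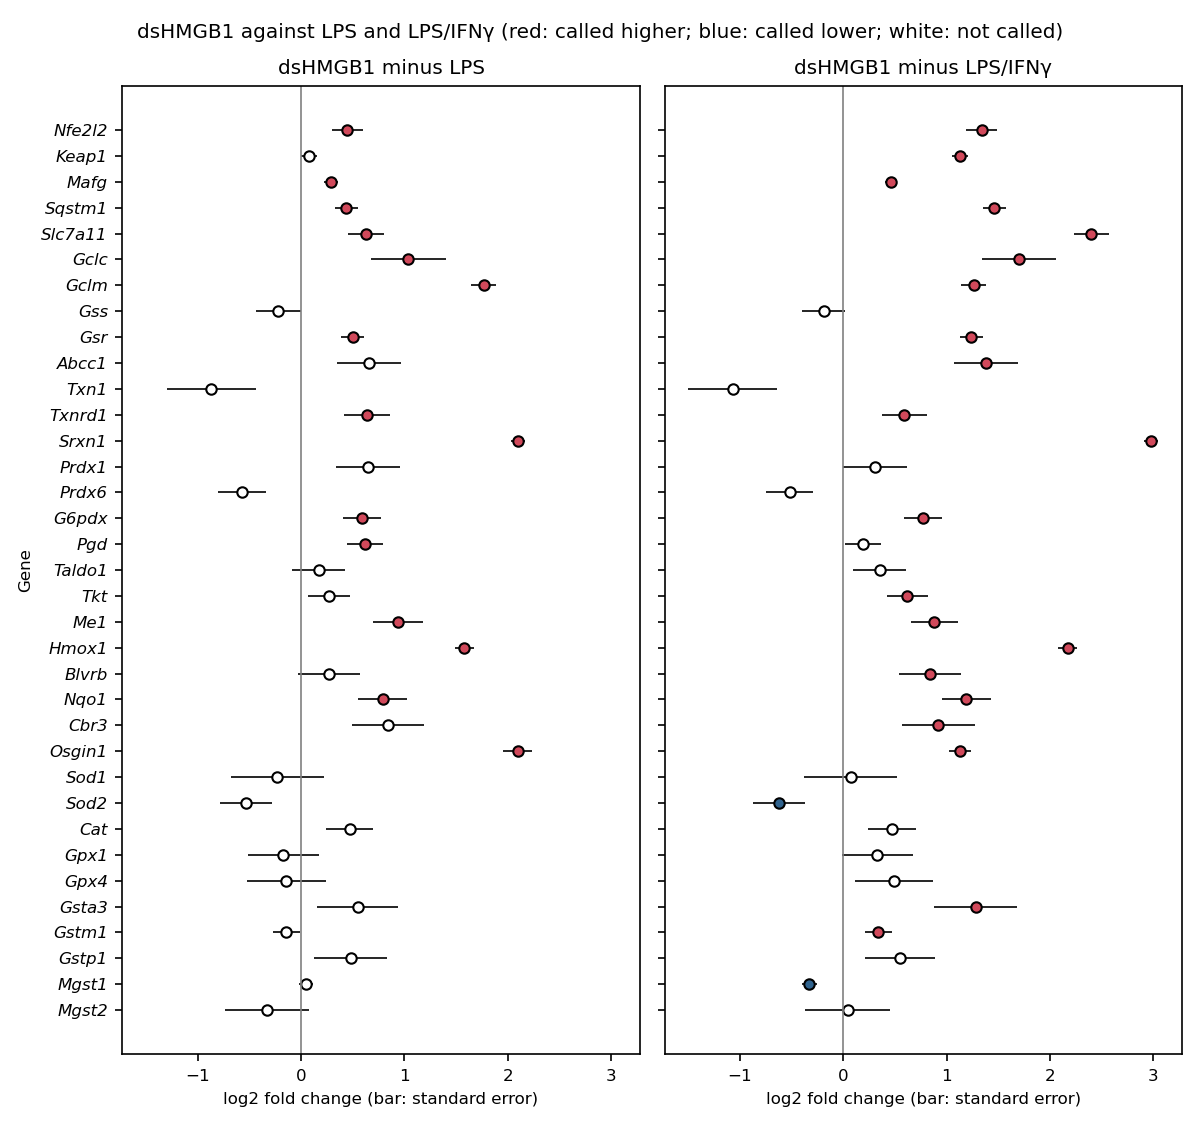
Log2 fold change of dsHMGB1 over LPS (left) and over LPS/IFNγ (right) for the 35 genes, with bars of 1 standard error. Red points were called higher and blue lower in dsHMGB1 with all 15 libraries, and white points were not called. Srxn1, Osgin1, Gclm and Hmox1 lie furthest to the right against LPS, at 2.10, 2.10, 1.77 and 1.58, and Sod2 and Mgst1 are the 2 blue points against LPS/IFNγ.

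Of the dismutases, Sod2, the mitochondrial manganese enzyme and a known target of NF-κB, was at 2607, 2572 and 5669 in PBS, at 54239, 46239.6 and 45159 in dsHMGB1, at 69589.9, 68415 and 73011 in LPS and at 75419.9, 72542 and 76016 in LPS/IFNγ. All stimulated groups but frHMGB1 were above PBS, and dsHMGB1 lay below both LPS groups. The rise over PBS was 13.4-fold in dsHMGB1, 19.5-fold with LPS and 20.7-fold with LPS/IFNγ (adjusted p = 1.77e-08, 3.77e-09 and 2.81e-09). PBS replicate 3 was 2.19 times the mean of PBS replicates 1 and 2, so these rises are smaller than against those replicates alone. dsHMGB1 was 1.54-fold below LPS/IFNγ (adjusted p = 0.0416). Its 1.45-fold difference from LPS missed the threshold with all libraries (log2 -0.53 ± 0.25, adjusted p = 0.116). It passed without PBS replicate 3 (log2 -0.53 ± 0.07).

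The short transcripts Sod1, Gpx1 and Gpx4 (cytosolic superoxide dismutase and a pair of glutathione peroxidases) were far higher in PBS replicate 3 than in the other PBS libraries, and the size of their falls depended on it. Sod1 was at 7502, 7448 and 35590.1 in PBS, 7619, 5285 and 6145 in dsHMGB1 and 7339.9, 7233 and 7767 in LPS. PBS replicate 3 lay far above the rest and the other libraries overlapped, and the called fall in LPS, log2 -1.18 ± 0.45, became -0.01 ± 0.11, not called, without it and -0.52, called, with the length offset. Sod1 stayed called lower without that library in dsHMGB1, at -0.24 ± 0.11 (adjusted p = 0.0242) against -1.41 ± 0.45 with it, and in LPS/IFNγ, at -0.32 ± 0.11 (adjusted p = 0.00231) against -1.48 ± 0.45. Gpx4 was at 7999, 7231 and 27406 in PBS and at 8008, 7643 and 7892 in LPS, and its calls in LPS and dsHMGB1 ended without PBS replicate 3 but held with the length offset. In LPS it went from log2 -0.86 ± 0.38 to 0.04 ± 0.10, and in dsHMGB1 it went from a 2.00-fold to a 1.07-fold fall. In LPS/IFNγ it was at 5249, 4883 and 5082, below every PBS library, and it was called lower both with and without PBS replicate 3 (2.80-fold and 1.51-fold). Gpx1 was called lower than PBS under dsHMGB1, LPS and LPS/IFNγ in both fits, and the fall in LPS/IFNγ was 2.95-fold with all libraries and 1.76-fold without PBS replicate 3. Near-identical pseudogenes bear on these counts. Gpx4-ps2 held 46.5% as many counts as Gpx4 at 99.7% identity, and Gm8566 held 15.7% as many as Sod1. Adding such copies to the 9 genes that have them ended or made no call. Cat, catalase, was called lower than PBS in LPS and LPS/IFNγ (1.66-fold and 1.65-fold with all libraries). In dsHMGB1 Cat was not called with all libraries (adjusted p = 0.326) but lower without PBS replicate 3 (log2 -0.54 ± 0.07). That library held 0.470 times the mean of PBS replicates 1 and 2 for Cat, and the size of its falls depends on it.

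The glutathione transferases, which attach glutathione to electrophiles, did not rise over PBS in dsHMGB1, LPS or LPS/IFNγ in either fit. Gstm1 was at 7379, 7058 and 7782 in LPS/IFNγ, below all 12 other libraries, against 11408, 10478 and 15287 in PBS, a 1.67-fold fall (adjusted p = 2.97e-05). Gstp1 was lower than PBS by log2 -1.14 ± 0.34 in LPS and -1.21 ± 0.34 in LPS/IFNγ with all libraries, and by -0.51 ± 0.19 and -0.58 ± 0.19 without PBS replicate 3, and its pseudogene Gstp-ps held 26.2% as many counts. Mgst1, a microsomal member, was 1.26-fold lower in dsHMGB1 than in LPS/IFNγ (adjusted p = 0.0158). Gsta3, at 20.1 to 101 normalized counts in the 15 libraries, was 2.42-fold higher in dsHMGB1 than in LPS/IFNγ (adjusted p = 0.0168). Mgst2, which was at 62.1 to 116 outside PBS and at 301 in PBS replicate 3, was called lower than PBS in dsHMGB1 and LPS/IFNγ with all libraries (adjusted p = 0.0444 and 0.0288) and in neither without that library or with the length offset.

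Counted over the list, dsHMGB1 was called higher than LPS for 15 of 35 genes (42.9%, beside 15.8% of all genes tested) and lower for none in edgeR (beside 10.6%), where 2 genes had an unadjusted p under 0.05 and DESeq2 called 1 lower. The median log2 difference was 0.47, beside 0.02 for all genes. Without PBS replicate 3 the counts were 23 higher (beside 25.6%) and 3 lower (beside 23.3%), the 3 being Txn1, Prdx6 and Sod2. The count of lower genes was 1 when dsHMGB1 replicate 1 was left out, and the count of higher genes fell to 9 when dsHMGB1 replicate 2 or LPS replicate 1 was left out. Against LPS/IFNγ, dsHMGB1 was higher for 21 genes (60%, beside 16.5%) and lower for 2 (beside 16.7%), with a median of 0.62 beside 0.01. These became 28 (beside 27.9%) and 4 (beside 25.4%) without PBS replicate 3, and the count of 2 became 0 without dsHMGB1 replicate 2 or 3 or LPS/IFNγ replicate 1 or 3, and 1 without dsHMGB1 replicate 1 or LPS/IFNγ replicate 2. The genes higher in dsHMGB1 in both comparisons, which share the dsHMGB1 libraries, numbered 14 with all libraries and 23 without PBS replicate 3. The matching count over all genes tested was not made. Calls in each single comparison also rose over all genes without that library. The rise from 14 to 23 therefore does not set the list apart.

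LPS/IFNγ against LPS alone gave 4 genes higher (beside 16.3%) and 8 lower (beside 9.36%), with a median of -0.30 beside 0.00. The higher genes were Gclm, Pgd, Mgst1 and Osgin1, and the lower ones included Slc7a11 (3.41-fold), Keap1 (2.08-fold) and Sqstm1 (2.02-fold). Leaving out PBS replicate 3 gave 5 (beside 25.1%) and 18 (beside 24.3%), and without LPS replicate 2 the 4 became 2. By the study's methods the 2 groups also differed in LPS dose, at 100 ng/mL in LPS/IFNγ and 1 µg/mL in LPS alone. One label field gives 1 µg/mL for both. A difference in dose cannot be told apart from the effect of IFN-γ.

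Over PBS, dsHMGB1 gave 13 genes higher (37.1%, beside 23.3%) and 8 lower (22.9%, beside 24.2%), with a median of 0.24 beside -0.10. LPS gave 11 higher (31.4%, beside 26.7%) and 15 lower (42.9%, beside 36.2%), and LPS/IFNγ gave 9 higher (25.7%, beside 29%) and 19 lower (54.3%, beside 31.2%). The medians were -0.31 beside -0.21 for LPS and -0.49 beside -0.12 for LPS/IFNγ. With PBS replicates 1 and 2 alone, the counts for dsHMGB1 were 18 higher (beside 29.8%) and 8 lower (beside 29%), for LPS 15 (beside 32.9%) and 15 (beside 38.3%), and for LPS/IFNγ 12 (beside 33.3%) and 19 (beside 34.4%). The 8 genes lower in dsHMGB1 became 5 when dsHMGB1 replicate 2 or 3 was left out. These comparisons share the PBS libraries. Across the 35 genes the fold change of dsHMGB1 over PBS rose with transcript length (Spearman correlation 0.793), as did that of dsHMGB1 over frHMGB1 (0.667) and, less steeply, over LPS (0.406). Over 13025 protein-coding genes the same correlations were 0.184 (-0.042 without PBS replicate 3), 0.087 and 0.065. For dsHMGB1 over LPS/IFNγ the correlation was 0.404 across the 35 genes and -0.117 across the 13025. A fit with an offset for transcript length in each library gave 21 genes higher and 2 lower for dsHMGB1 over LPS, beside 3568 and 2508 of 16919 genes tested. Over LPS/IFNγ it gave 25 higher and 2 lower, beside 3825 and 3178. Calls over all genes also rose with this offset.

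**Figure D5:**
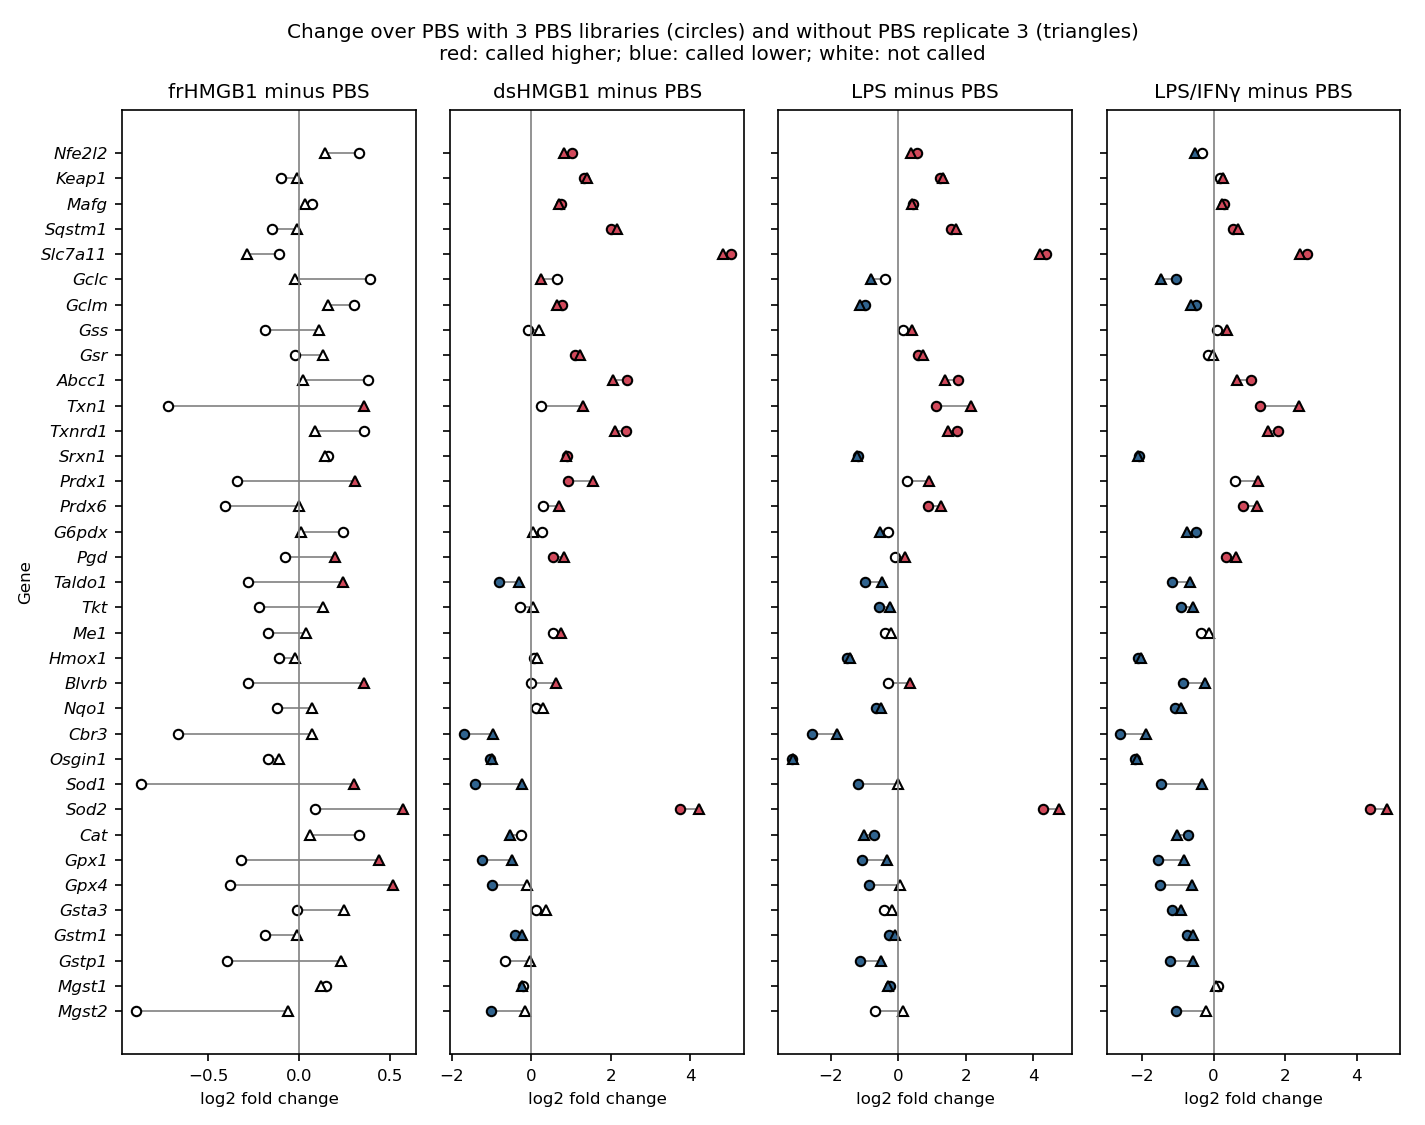
Log2 fold change over PBS of the 35 genes in frHMGB1, dsHMGB1, LPS and LPS/IFNγ, with all 3 PBS libraries (circles) and without PBS replicate 3 (triangles), on a separate horizontal scale in each panel. Red was called higher, blue lower and white not called. Slc7a11 and Sod2 lie furthest to the right in the last 3 panels, and the longest grey lines, those of Sod1, Txn1 and Gpx4, show how far 1 library moved the estimate.

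frHMGB1 was set against PBS to ask whether the reduced form, in a preparation made with DTT, acts on these genes. With all libraries no gene was called in either direction in edgeR (beside 1.31% higher and 5.69% lower of all genes), 1 gene each way had an unadjusted p under 0.05 and DESeq2 called none. Without PBS replicate 3, 9 genes were called higher (25.7%, beside 8.41%) and none lower (beside 9.09%, with 1 at an unadjusted p under 0.05). They were Sod2 (log2 0.57 ± 0.08), Gpx4 (0.52 ± 0.10), Gpx1 (0.44 ± 0.10), Txn1 and Blvrb (0.36 each), Prdx1 (0.31 ± 0.10), Sod1 (0.30 ± 0.11), Taldo1 (0.24 ± 0.07) and Pgd (0.20 ± 0.06). In that comparison the fold change fell with transcript length across 13025 protein-coding genes (Spearman correlation -0.479), and its part in these 9 calls was not tested. With all libraries and the length offset no gene was called in either direction. The direct comparison of the redox forms uses no PBS library in its means. dsHMGB1 was higher than frHMGB1 for 15 genes (42.9%, beside 27.7%) and lower for 5 (14.3%, beside 23.1%), with a median of 0.26 beside 0.02. Slc7a11 was higher by 5.13 ± 0.17 on the log2 scale (adjusted p = 2.66e-10), Sod2 12.6-fold, Sqstm1 4.46-fold, Abcc1 4.11-fold and Txnrd1 4.09-fold. The 5 lower genes were Cat, Gpx1, Mgst1, Osgin1 and Cbr3. Leaving out PBS replicate 3 gave 19 (beside 35.8%) and 9 (beside 32.9%), and the 5 became 3 without frHMGB1 replicate 3 or dsHMGB1 replicate 2 or 3.

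A wider list of 89 further NRF2, glutathione, thioredoxin and NADPH genes, of which 83 passed the filter, was counted in the same way. dsHMGB1 gave 18 of the 83 higher and 34 lower than PBS (21.7% and 41%, beside 23.3% and 24.2% of all genes), LPS 17 and 39 (20.5% and 47%, beside 26.7% and 36.2%), and LPS/IFNγ 16 and 46 (19.3% and 55.4%, beside 29% and 31.2%). With PBS replicates 1 and 2 alone these were 24 and 34 (beside 29.8% and 29%), 26 and 37 (beside 32.9% and 38.3%), and 22 and 44 (beside 33.3% and 34.4%). dsHMGB1 was higher than LPS for 11 and lower for 9 (13.3% and 10.8%, beside 15.8% and 10.6%), and for 25 and 19 without PBS replicate 3 (30.1% and 22.9%, beside 25.6% and 23.3%). It was higher than LPS/IFNγ for 24 and lower for 11 (28.9% and 13.3%, beside 16.5% and 16.7%), and for 38 and 12 without that library (45.8% and 14.5%, beside 27.9% and 25.4%). The 3 genes with the largest rises over PBS in dsHMGB1 were Chac1, an enzyme that degrades glutathione, at log2 5.41 ± 0.23, Maff, a small MAF protein, at 3.78 ± 0.10, and Ggct, of glutathione turnover, at 2.49 ± 0.29. All 3 were higher still in LPS/IFNγ, and Chac1 and Maff were lower in dsHMGB1 than in LPS (log2 -1.27 ± 0.20 and -1.33 ± 0.08). The largest falls were those of Sesn1, a sestrin, at -2.94 ± 0.16, Trim16 at -2.41 ± 0.21, and Idh1, cytosolic isocitrate dehydrogenase, at -2.26 ± 0.08. Sesn1 had means of 8036 in PBS, 1049 in dsHMGB1, 193 with LPS and 186 with LPS/IFNγ, and so was 2.45 log2 units higher in dsHMGB1 than in LPS (adjusted p = 6.21e-07). Against LPS the other large differences were rises of Abcc5, an exporter, (0.70) and Glrx2, a glutaredoxin, (0.54) and a fall of Sesn2 (-0.89). Against LPS/IFNγ they were rises of H6pd (2.13) and Abcc5 (1.68) and falls of Ggct (-1.84) and of Cul3, the ubiquitin ligase scaffold used by KEAP1, (-1.63).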

How the data were processed

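RNA-seq of BMDMs was analysed in 15 libraries. The authors made stranded mRNA libraries for paired-end sequencing and aligned the reads to GRCm38 with STAR. The deposited values are whole-number counts of reads per Ensembl gene, without normalization, and the counting program is not given in the sources used here. Symbols, positions and transcript lengths came from GENCODE M21 (51661 of 51763 identifiers matched). Totals of 40934540 to 80925478 counts per library set the counting precision. Comparisons were tested two-sided with edgeR 4.0.16 in R 4.3.3 (TMM, filterByExpr, quasi-likelihood F test, all 15 libraries in 1 fit, Benjamini-Hochberg over 16919 genes, or 17339 without PBS replicate 3). Fold changes, SE and normalized counts came from DESeq2 1.42.0. Pseudogene copies had at least 90% identity over at least 200 bases and 50% of their length. The tests were tried on simulated data, where the recovery required was loosened after a first run failed, and no result rests on that trial. No libraries were alike within sampling noise. All 35 genes are named, and of the wider list the 3 largest called rises and falls among genes averaging 100 normalized counts or more in 1 of the conditions compared. The genes, roles and lists were chosen with earlier results of these data known.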

Additional observations from a re-analysis of the deposited data

How the results depend on the processing

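The counts of the 35 genes called were recomputed under other settings. Requiring a change above 2-fold (glmTreat) left 6 higher and 1 lower for dsHMGB1 over PBS, 6 and 4 for LPS over PBS, 3 and 5 for LPS/IFNγ over PBS, 4 higher for dsHMGB1 over LPS, 5 and 0 for dsHMGB1 over LPS/IFNγ, 0 and 1 for LPS/IFNγ over LPS, and 6 and 0 for dsHMGB1 over frHMGB1. Of 16919 genes tested, it left 1693 and 964 for dsHMGB1 over PBS, 2309 and 2920 for LPS, and 2656 and 2311 for LPS/IFNγ. For dsHMGB1 it left 689 and 242 over LPS, 419 and 723 over LPS/IFNγ, and 2376 and 1020 over frHMGB1. LPS/IFNγ over LPS kept 917 and 176. Fitting the 2 conditions alone gave 2 lower for dsHMGB1 over PBS, 5 lower for LPS over PBS, 4 higher and 10 lower for LPS/IFNγ over PBS, 23 and 3 for dsHMGB1 over LPS, 4 lower for dsHMGB1 over LPS/IFNγ, 7 and 18 for LPS/IFNγ over LPS, and 9 lower for dsHMGB1 over frHMGB1. Over all genes the matching counts were 2254 of 15883, 3685 of 15049, 4157 and 3555 of 15863, and 3761 and 3224 of 14872. The remaining comparisons, in the same order, gave 4284 of 15494, 4564 and 4435 of 14738, and 5261 of 15294. For dsHMGB1 over LPS, DESeq2 gave 1 lower (beside 2472 of 16850 genes) and the length offset 2 (beside 2508 of 16919). RLE normalization gave 1 lower for dsHMGB1 over LPS/IFNγ (beside 2945 of 16919), and no filter on low counts 3 lower for dsHMGB1 over frHMGB1 (beside 2818 of 29051). All other counts were within 1.5 times those reported under these settings, with a minimum of 1 CPM in 3 libraries, with protein-coding genes alone and with pseudogene copies added. The length offset, and the fits without PBS replicate 3 in comparisons that do not involve PBS, were chosen after seeing the data.

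Leaving out 1 library at a time gave 0 to 9 higher for frHMGB1 over PBS, 5 to 10 lower for dsHMGB1 over PBS, 9 to 23 higher and 0 to 3 lower for dsHMGB1 over LPS, 0 to 4 lower for dsHMGB1 over LPS/IFNγ, 2 to 5 higher and 8 to 18 lower for LPS/IFNγ over LPS, and 3 to 9 lower for dsHMGB1 over frHMGB1. Shares of all genes are given above for the fits without PBS replicate 3 and are not given for the others. Counting changes called in at least 1 of the fits, the log2 fold change over PBS changed sign for 8 genes with frHMGB1, 3 with LPS and 1 with dsHMGB1, in each case without PBS replicate 3, whose omission gives the upper end of each range. With frHMGB1 the ranges were -1.05 to 0.36 for Txn1, -0.57 to 0.31 for Prdx1, -0.20 to 0.20 for Pgd, -0.49 to 0.24 for Taldo1, -1.22 to 0.30 for Sod1, -0.59 to 0.44 for Gpx1, -0.69 to 0.52 for Gpx4 and -0.54 to 0.36 for Blvrb. They were -0.21 to 0.19 for Pgd, -1.17 to 0.04 for Gpx4 and -0.56 to 0.34 for Blvrb with LPS, and -0.29 to 0.61 for Blvrb with dsHMGB1. With the length offset it changed sign for Mafg in LPS/IFNγ (-0.11) and Blvrb in dsHMGB1 (0.46). The cause was not tested.

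Replicate numbers did not pair the libraries: of 30 correlations between same-numbered libraries, 1 exceeded 0.1 (range -0.386 to 0.375). With the replicate number as a block, dsHMGB1 was higher than LPS for 15 genes and lower for 0, higher than LPS/IFNγ for 20 and higher than PBS for 13, and no count moved by over 1.5 times. Of 16919 genes tested, the matching counts were 2490, 1669, 2651 and 3856.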
